A study of Mus musculus with 18 samples.

Results

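The comparison was of oocytes from primordial follicles of mice labelled NTY with oocytes from primordial follicles of sham mice. It used 6 of the 18 libraries of the series, 3 labelled primordial follicles and NTY and 3 labelled primordial follicles and sham, and every gene counted in them. The series also holds sham and NTY libraries of oocytes from primary follicles and of MII oocytes. All mice were of the strain label C57Bl/6j x CBA/J, and all 6 libraries were marked in vivo. The labels give no age, dose or time and do not say what NTY is, so the name is used as it stands. By the labelled protocol, laser-cut cells of the same stage were pooled at RNA extraction, the RNA was amplified linearly before sequencing, and libraries were made with a kit that captures coding RNA. No source used here says that the replicates came from separate mice, so p-values measure the spread between these libraries, which may be technical.

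Primordial follicles form the ovarian reserve, from which all later follicles are recruited, and their oocytes rest in the first arrest of meiosis in contact with pre-granulosa cells. The resting oocyte holds germ cell factors such as DDX4, LHX8 and NOBOX, and begins to make zona pellucida proteins and the growth factor GDF9 as it starts to grow. Activation runs through KIT ligand from pre-granulosa cells, the KIT receptor and the PI3K-AKT pathway of the oocyte, with FOXO3 and CDKN1B among its brakes.

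Total counts were 15149564, 29205503 and 21086068 in the sham libraries and 22679770, 23532501 and 27012288 in the NTY libraries, in the order of the replicates, as are all later values. Replicates differed widely. There were 9134 genes that reached 100 counts somewhere in the 6 libraries, of which 2598 (28.4%) did so in a single library and 938 (10.3%) did so in all 6. The common dispersion, the squared biological coefficient of variation that edgeR estimates, was 3.60 over the 12 libraries of primordial and primary follicles fitted together. Rank correlations of the genes tested lay between 0.397 and 0.448 within sham, between 0.444 and 0.587 within NTY, and between 0.365 and 0.531 across the groups, as a description. NTY replicate 3 stood apart. It held at least 100 counts for 2666 genes, against 3228 to 6469 in the other 5 libraries, and its 10 highest genes took 14.2% of its counts, against 6.04% to 7.54%.

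**Figure D1:**
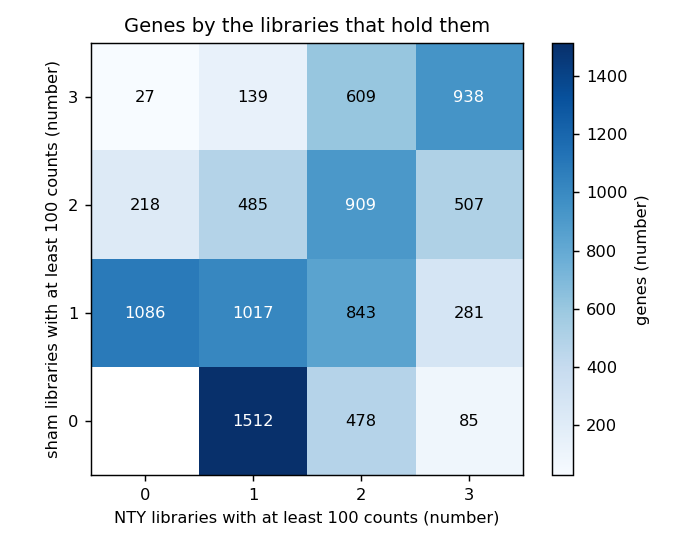
Number of genes by how many of the 3 sham libraries (vertical axis) and how many of the 3 NTY libraries (horizontal axis) held at least 100 counts, with the number written in each cell and the cell of genes below that level everywhere left empty. The largest cell is the 1512 genes that reached 100 counts in a single NTY library and in no sham library, and 85 genes reached it in all 3 NTY libraries and in no sham library against 27 the other way round.

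The labelled cell type was checked first against oocyte markers. The early oocyte list of 15 genes summed to 918, 1778 and 970 CPM (counts per 1000000 counts of the library) in the sham libraries and to 831, 1404 and 4.48 CPM in the NTY libraries. The oocyte growth list of 16 genes summed to 201, 787 and 105 CPM in sham and to 35.9, 252 and 4.04 CPM in NTY. NTY replicate 3 was thus nearly without RNA of the oocyte lists. In NTY replicate 1 the early oocyte sum came mostly from Ybx2 (546 CPM) and Kit (218 CPM). In sham replicate 1 it likewise came mostly from the meiotic cohesin gene Smc1b and from Ybx2. At least 10 counts were reached by 8 of the 15 genes in NTY replicate 1. The number was 9 to 13 in the sham libraries, 10 in NTY replicate 2 and 5 in NTY replicate 3. Ybx2, a germ cell mRNA-binding protein, had 3575, 27591 and 3091 counts in sham and 12372, 22168 and 17 in NTY. Ddx4, the germ cell RNA helicase, had 72, 1749 and 6114 counts in sham and 1, 2970 and 1 in NTY, so NTY replicate 1 was also without it. Lhx8, an oocyte homeobox factor, had 431, 368 and 1303 counts in sham and 562, 1230 and 3 in NTY. In bulk libraries such as these, fewer cells of a type and less RNA per cell cannot be told apart.

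**Figure D2:**
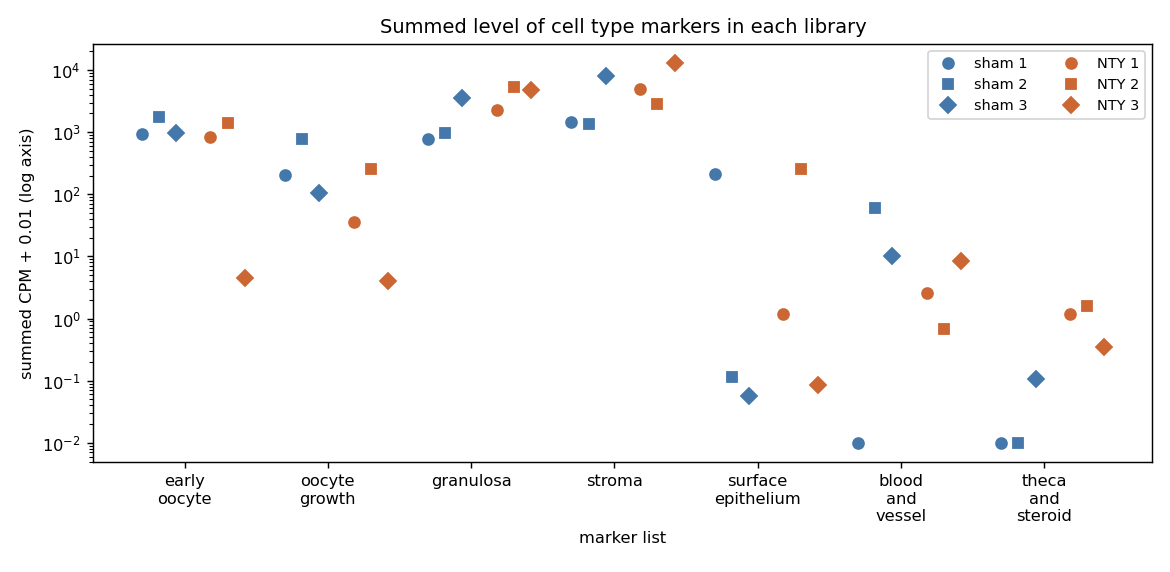
Summed CPM plus 0.01 (vertical log axis) of 7 lists of cell type markers in each of the 6 libraries, with sham in blue, NTY in orange and the replicate shown by the symbol. NTY replicate 3 (orange diamonds) lies at 4.48 and 4.04 CPM for the oocyte lists and at 4695 and 12988 CPM for the granulosa and stroma lists.

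Markers of neighbouring cells were present in all 6 libraries. The granulosa list of 17 genes summed to 784, 983 and 3520 CPM in sham and to 2258, 5298 and 4695 CPM in NTY, and the list of 8 stroma genes to 1467, 1377 and 8112 CPM in sham and to 5012, 2827 and 12988 CPM in NTY. For both lists the ranges of the groups overlapped. The aromatase Cyp19a1 was at 0 in every library and the FSH receptor Fshr stood at 15.7 CPM in NTY replicate 1 and at 0.128 CPM or less elsewhere. Theca and steroid genes summed to at most 1.57 CPM in any library. The 10 blood and vessel genes summed to at most 60.4 CPM. Of the 6 surface epithelium genes, Krt8, a simple epithelial keratin, stood at 216 CPM in sham replicate 1 and 255 CPM in NTY replicate 2, and every other member stayed below 1 CPM. The part of other cell types in the results that follow was not tested beyond the values given beside them.

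The NTY and sham libraries were compared gene by gene, and H2ac4, a gene of a replication-dependent histone H2A, was the gene that passed. It had 2, 3 and 1 counts in the sham libraries and 2031, 5597 and 115805 in the NTY libraries, which is 0.094 ± 0.043 CPM (SD, n = 3) against 1538 ± 2382 CPM (SD, n = 3). All 3 NTY libraries lay above all 3 sham libraries, and NTY replicate 3 held by far the most. Set against the 6 sham counts pooled, H2ac4 was 977-fold higher in NTY replicate 1 (95% exact interval 448 to 2660), 2590-fold higher in NTY replicate 2 (1190 to 7070) and 46800-fold higher in NTY replicate 3 (21500 to 127000), with intervals that cover counting error only. In edgeR's quasi-likelihood test over 10522 genes, H2ac4 rose in NTY by 14.57 ± 2.23 (log2 fold change ± SE; adjusted p = 0.00047). It was the single call, 0.0095% of the genes tested, and no gene fell. At an unadjusted p under 0.05 there were 804 genes higher (7.64%) and 341 lower (3.24%) in NTY. Fitted fold changes of genes with counts near 0 in a group depend on the prior count of the fit and are not measured folds.

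The call of H2ac4 was lost without NTY replicate 3. With that library left out, its log2 fold change was 10.40 with an adjusted p of 0.141 from edgeR, and no gene passed. Over the 15 fits that gave H2ac4 an adjusted p, that p ranged from 3.6e-13 to 0.799 and was under 0.05 in 12.

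H2ac4 (ENSMUSG00000061615) lies at chr13:23751126-23751598 on the plus strand of GRCm38, the assembly also called mm10, with its coding sequence at chr13:23751133-23751525 in a single exon. It belongs to a family of near-identical genes. Of 16 other protein-coding H2A cluster genes, 13 had a coding sequence of the same length, 393 bases, and these differed from that of H2ac4 by 7 to 68 bases. A run of at least 100 identical bases was shared with 13 of the 16 genes, the longest of 295 bases with H2ac13. How reads that match several copies were counted is not given in the sources used here, so the split of counts between H2A genes is uncertain. The same stretch of 3 of the genes is shown. It is the run of 90 coding bases in which H2ac15 and H2ac13 together differ most from H2ac4. The sequences are coding bases 7 to 96, read 5′ to 3′ from GRCm38 on the coding strand, at chr13:23751139-23751228 (plus strand) for H2ac4, chr13:21753732-21753821 (minus strand) for H2ac15 and chr13:21716428-21716517 (plus strand) for H2ac13, and capitals mark bases that differ from H2ac4, of which there are 7 in H2ac15 and 7 in H2ac13.
H2ac4: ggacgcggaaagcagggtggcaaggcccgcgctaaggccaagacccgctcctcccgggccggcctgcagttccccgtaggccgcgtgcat
H2ac15: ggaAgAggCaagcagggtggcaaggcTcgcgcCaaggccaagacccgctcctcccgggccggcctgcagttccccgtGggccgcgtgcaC
H2ac13: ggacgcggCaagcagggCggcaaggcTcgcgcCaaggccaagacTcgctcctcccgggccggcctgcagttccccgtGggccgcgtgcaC

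The other H2A genes did not share a single pattern. H2ac15 had 28, 5 and 1 counts in sham and 2, 26048 and 68198 in NTY, so NTY replicate 1 lay with the sham libraries. H2ac13 had 0, 4 and 0 counts in sham and 12024, 10282 and 2 in NTY, so here NTY replicate 3 lay with the sham libraries. H2ac6 had 14422, 261 and 145 counts in sham and 2698, 617 and 84896 in NTY, with overlapping groups. The 19 H2A genes together summed to 1728, 1030 and 35.9 CPM in sham and to 1579, 2618 and 9999 CPM in NTY. Of the 12 H2A genes tested, 1 passed the adjusted test and 4 were higher and 0 lower at an unadjusted p under 0.05, beside 7.64% higher and 3.24% lower of all genes tested. Their median log2 fold change was 2.55 against 0.12 over all genes, and ranged from 0.10 to 9.24 over the 17 fits made. H2ac15 had a log2 fold change of 11.29 ± 2.36 (adjusted p = 0.0908 from edgeR) in the fit of 12 libraries.

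Genes of the other core histones were also uneven between replicates. Of 10 H3 genes tested, 2 were higher at an unadjusted p under 0.05, beside 7.64% of all genes, and none passed the adjusted test. H3c2 had 1, 333 and 0 counts in sham and 5814, 2890 and 23601 in NTY, and H3c4 had 0, 2 and 1 in sham and 591, 3061 and 84 in NTY. For both H3 genes all NTY libraries lay above all sham libraries, as they did for 5.19% of all genes tested. Of 13 H4 genes tested, 3 were higher and 0 lower at an unadjusted p under 0.05, where 7.64% and 3.24% of all genes were, led by H4c11 with 0, 2 and 4 counts in sham and 166, 15377 and 2 in NTY, where the groups overlapped. Of 15 H2B genes tested, 2 were higher and 1 lower at that level, and H2bc1, the lower gene, had 6, 6218 and 0 counts in sham and 0, 1 and 0 in NTY. The median log2 fold changes were 0.72 for H3, 1.66 for H4 and -0.84 for H2B genes. The sign held in all 17 fits for H2A and H4 and in 15 for H3 and 12 for H2B.

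**Figure D3:**
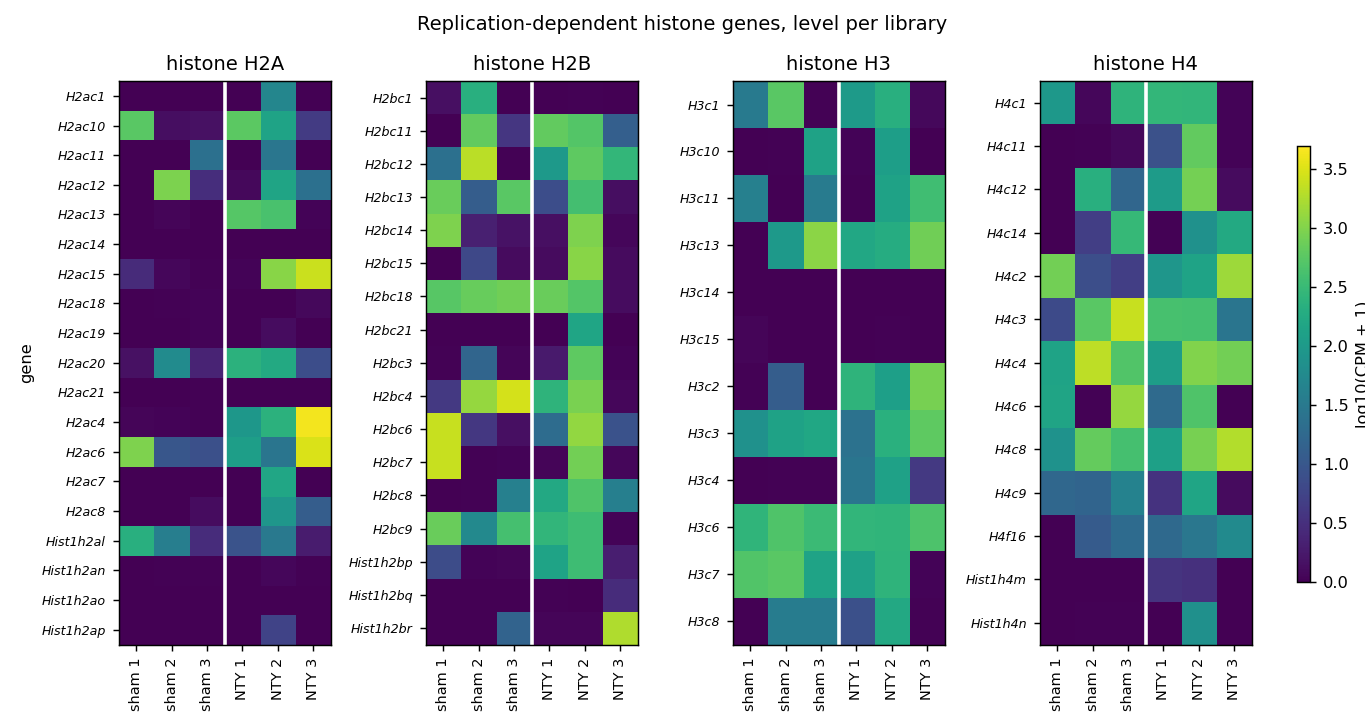
Level of each replication-dependent histone gene, as log10(CPM + 1), in the 6 libraries, with a white line between the 3 sham and the 3 NTY libraries of each of the 4 families. H2ac4 is dark in all sham libraries and bright in NTY, while most other genes are bright in some libraries of a group and dark in others.

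When the 6 primordial libraries were fitted alone, 6 of 7209 genes passed the adjusted p of 0.05 in edgeR (0.0832%), of which H2ac4, H2ac15, Ahnak, Gna13 and Fkbp3 were higher in NTY. Fkbp3, a nuclear prolyl isomerase that binds FK506, had 0, 6 and 2 counts in sham and 533, 3155 and 32294 in NTY (adjusted p = 0.0407 by edgeR). Gna13, the alpha subunit of a G protein that acts on RhoA, had 0, 1 and 9 counts in sham and 932, 6952 and 35172 in NTY (adjusted p = 0.0325 by edgeR). In both genes every NTY library exceeded every sham library, with the highest count in NTY replicate 3. In the fit of 12 libraries the adjusted p was 0.094 for Fkbp3 and 0.405 for Gna13 and Ahnak. With the 6 libraries fitted alone but NTY replicate 3 left out, 0 of 8947 genes passed in edgeR, with 505 at an unadjusted p under 0.05.

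Ahnak, which encodes a very large scaffold protein beneath the plasma membrane, had the second highest mean CPM of all genes. Its counts were 110545, 114411 and 82257 in sham and 204715, 301287 and 1091518 in NTY. The NTY libraries all lay above the sham libraries, at 20746 ± 17133 CPM (SD, n = 3) against 5038 ± 1956 CPM (SD, n = 3). The log2 fold change was 2.50 ± 0.69 with the 12 libraries and 2.61 with the 6 alone (adjusted p = 0.00359 by edgeR), and 0.86 without NTY replicate 3. Malat1, a nuclear long noncoding RNA, was also among the 10 most abundant genes. It had 55029, 62005 and 62346 counts in sham and 176948, 142716 and 195655 in NTY, with a log2 fold change of 1.50 ± 0.74 (adjusted p = 0.454 by edgeR). The 3 NTY libraries were close to each other and above all sham libraries, at 7037 ± 887 CPM against 2904 ± 756 CPM (SD, n = 3 each). Actb, Eif4g2, Usp9x, Ppia, Pcbp2, Hnrnpa1 and Ranbp2 were also among these 10, and in each of them the groups overlapped.

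**Figure D4:**
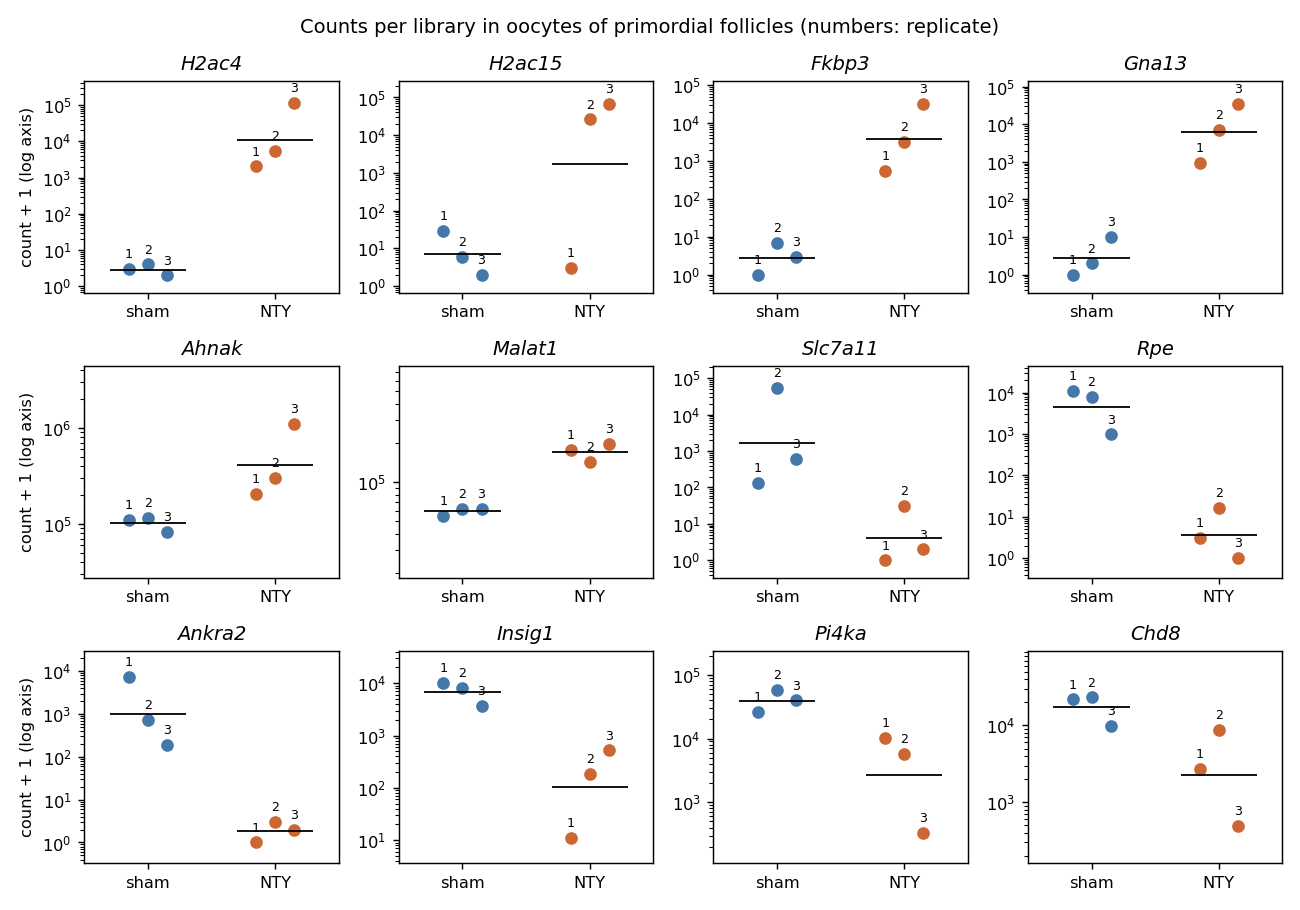
Counts plus 1 (vertical log axis) of 12 named genes in each library of the sham (blue) and NTY (orange) groups, with the replicate number above each point and a bar at the geometric mean of the 3 libraries. H2ac4, Fkbp3, Gna13, Ahnak and Malat1 lie higher in all 3 NTY libraries, whereas in H2ac15 NTY replicate 1 lies with the sham libraries.

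Counting genes whose 3 values in a group all lay beyond the 3 of the other, 546 of the 10522 genes tested were higher in NTY (5.19%) and 292 were lower (2.78%). Without NTY replicate 3 these numbers were 1818 and 354, without sham replicate 1 they were 773 and 954 and without NTY replicate 2 they were 756 and 796, so which direction held more genes turned with the library left out. A comparison of 2 libraries with 3 has fewer values that can overlap. Even with 3 against 3, genes can separate through the order of the libraries alone. A lack of overlap therefore does not by itself show an effect of NTY. An on-or-off pattern was rarer. Of the genes tested, 17 had 3 counts or fewer in every sham library and at least 100 in every NTY library (0.162%), and 2 showed the reverse (0.019%). After H2ac4 these 17 were led by Pgap2, which remodels the lipid anchor of GPI-linked proteins, with 0, 1 and 1 counts in sham and 944, 1546 and 3917 in NTY. Gria3, a subunit of AMPA-type glutamate receptors, had 0, 1 and 0 counts in sham and 762, 1950 and 7662 in NTY. Rnf13, an endosomal ubiquitin ligase, had 0, 0 and 0 counts in sham and 1684, 567 and 8814 in NTY. In each of these genes NTY replicate 3 was the highest library. Mrpl3, a protein of the large mitochondrial ribosomal subunit, is an exception, with 0, 0 and 0 counts in sham and 783, 307 and 571 in NTY. Wdr12 (ribosome assembly), Msantd2, Gtf2a2 (a subunit of the general factor TFIIA), Abca4 (a retinoid transporter) and Nck1 (an SH2 and SH3 adaptor) complete the leading 10. The adjusted p from edgeR was 0.405 for each of the 10 but H2ac4.

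The genes of smallest unadjusted p that were higher without overlap also included Dmd, which encodes dystrophin, with 0, 1 and 10 counts in sham and 10641, 569 and 24646 in NTY. Kcnt2, a potassium channel subunit, had 0, 1 and 5 counts in sham and 945, 263 and 25636 in NTY. Lsm12, an LSM-domain protein, had 1, 30 and 4 counts in sham and 6590, 935 and 19340 in NTY. The pseudogene Gm2223 had 0, 0 and 0 counts in sham and 718, 1 and 12840 in NTY, so NTY replicate 2 separated from sham by a single count. None of the 4 passed the adjusted test (adjusted p = 0.405 each, edgeR).

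Among genes lower in NTY, Slc7a11, the cystine importer that feeds glutathione synthesis, had the smallest p of those without overlap. Its counts were 129, 53183 and 604 in sham and 0, 31 and 1 in NTY, with an unadjusted p of 0.0026 and an adjusted p of 0.405 from edgeR. The groups did not overlap, but the sham libraries spanned a wide range with sham replicate 2 far above the others. Rpe, an epimerase of the pentose phosphate pathway, had 10883, 7815 and 975 counts in sham and 2, 15 and 0 in NTY. Ankra2, an ankyrin-repeat protein, had 7314, 719 and 192 counts in sham and 0, 2 and 1 in NTY. Ddhd2, a lipase, had 4464, 251 and 3017 counts in sham and 2, 7 and 0 in NTY, and Tspan5, a tetraspanin, had 638, 12872 and 2974 in sham and 1, 21 and 0 in NTY. In these 4 genes after Slc7a11 every sham library was above every NTY library, and NTY replicates 1 and 2 were low as well as NTY replicate 3. Grid1, H2-Q4, Kctd21 and the pseudogenes Gm7666 and Rps26-ps1 complete this set of 10, of which Rps26-ps1 had 902, 229 and 335 counts in sham and 0, 0 and 0 in NTY. Grid1, H2-Q4, Gm7666 and Kctd21 each had a sham library with 1 to 5 counts.

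**Figure D5:**
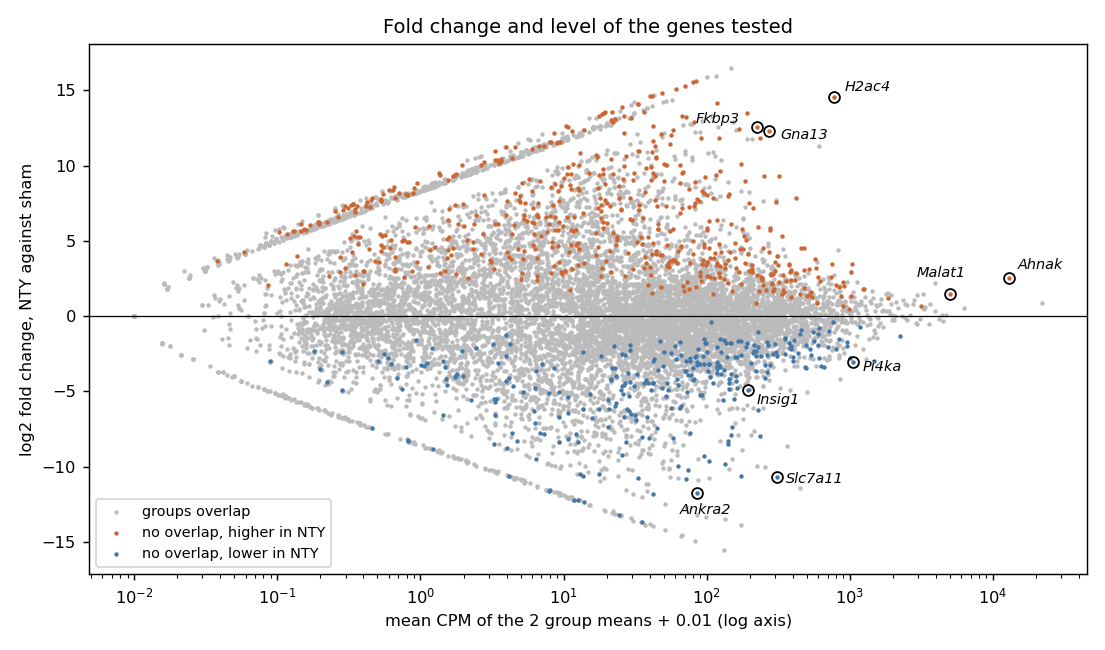
Log2 fold change of NTY against sham (vertical axis) against the mean CPM plus 0.01 (horizontal log axis) for the 10522 genes tested, with the 546 genes higher without overlap in orange, the 292 lower without overlap in blue and the rest in grey. H2ac4 lies at 14.57 at the upper right, Ahnak and Malat1 at 2.50 and 1.50 among the most abundant genes, and the outer diagonal lines are genes at or near 0 in all libraries of a group.

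A test restricted to the 1848 genes that had 10 or more counts in each of the 6 libraries leaves out every gene near 0 in any of them. None passed the adjusted p in edgeR, 89 had an unadjusted p under 0.05, and 124 were higher (6.71%) and 93 lower (5.03%) in NTY without overlap. The higher genes were led by Wsb2, a SOCS-box protein, with 12, 24 and 39 counts in sham and 4333, 899 and 8098 in NTY. Map3k1, a kinase upstream of JNK, had 30, 12 and 54 counts in sham and 2062, 1146 and 18968 in NTY. Tgfb1i1, a focal adhesion adaptor, had 14, 36 and 19 counts in sham and 4110, 4753 and 86 in NTY, with NTY replicate 3 the closest to sham. Prpf3 (a splicing factor), Morf4l2 (a chromatin protein), Lzts2, Ahnak and Zfc3h1 (nuclear RNA decay) followed.

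The lower genes of this test were led by Cntnap1, a cell adhesion protein, with 1757, 4686 and 2327 counts in sham and 24, 121 and 13 in NTY. Insig1, which holds the sterol sensor SCAP in the endoplasmic reticulum, had 10192, 8273 and 3633 counts in sham and 10, 184 and 517 in NTY, so that NTY replicate 3 was the highest of the NTY libraries. Pi4ka, the phosphatidylinositol kinase of the plasma membrane, had 26190, 58644 and 39682 counts in sham and 10335, 5706 and 334 in NTY, which is 1873 ± 140 CPM against 237 ± 222 CPM (SD, n = 3 each). The sham libraries of Pi4ka were close to each other, and its log2 fold change was -3.07 ± 1.37 with an adjusted p of 0.419 from edgeR. Chd8, a chromatin remodeller, had 21807, 23153 and 9978 counts in sham and 2680, 8741 and 483 in NTY. Spg11, Mtmr10, Igf2r (the cation-independent mannose 6-phosphate receptor) and Sh3bp2 followed. Chd8, Spg11, Igf2r and Sh3bp2 each had a sham library within 3-fold of an NTY library in CPM.

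The oocyte lists were described with NTY replicate 3 in view. Of 13 early oocyte genes tested, 0 passed the adjusted test in edgeR and 2 were lower at an unadjusted p under 0.05, with 3.24% of all genes lower at that level. Their median log2 fold change was -1.54, and -1.02 without NTY replicate 3 and -0.74 without sham replicate 2. The 2 were the meiotic cohesin subunits Smc1b, with 9442, 22 and 2175 counts in sham and 1, 197 and 16 in NTY, and Stag3, with 0, 91 and 5 in sham and 0, 0 and 0 in NTY. Both overlapped between the groups. Of 16 oocyte growth genes, all tested, 0 passed the adjusted test in edgeR and 0 reached an unadjusted p under 0.05. Their median log2 fold change was -1.95, and -1.50 without NTY replicate 3. It turned to 0.11 without sham replicate 2 and was -5.35 without NTY replicate 2, so its direction rested on sham replicate 2. Gdf9 had 32, 7061 and 5 counts in sham and 32, 1564 and 4 in NTY, and Zp3, a zona pellucida protein, had 121, 2108 and 63 in sham and 44, 315 and 1 in NTY. Sham replicate 2 and NTY replicate 2 were thus the libraries with the most RNA of growth genes in their groups.

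Of the 18 follicle activation genes, all tested, 0 passed the adjusted test in edgeR, 0 reached an unadjusted p under 0.05 and the median log2 fold change was 0.34. That median turned to -0.56 without NTY replicate 3 and to -0.16 without sham replicate 1. Kit, the receptor, had 155, 303 and 5414 counts in sham and 4933, 2145 and 28 in NTY. Foxo3, the transcription factor that holds oocytes at rest, had 35575, 23144 and 24956 counts in sham and 12463, 20041 and 94231 in NTY, and its log2 fold change went from 0.69 to -1.30 when NTY replicate 3 was left out. Cdkn1b, the cell cycle inhibitor p27, was the member without overlap, with 1257, 549 and 960 counts in sham and 103, 22 and 9 in NTY (log2 fold change -4.63 ± 3.15, adjusted p = 0.63, edgeR). Of all genes tested, 2.78% were lower without overlap.

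Of the 15 granulosa genes tested, 0 passed the adjusted test in edgeR, 2 were higher at an unadjusted p under 0.05 (7.64% of all genes were) and 3 were higher without overlap (5.19% of all genes were). Inha, the inhibin alpha subunit, had 0, 379 and 946 counts in sham and 12042, 13831 and 22265 in NTY. Its log2 fold change was 5.32 ± 2.07 (unadjusted p = 0.0135, adjusted p = 0.405, edgeR), and 4.67 without NTY replicate 3. Gja1, the gap junction protein connexin 43 of granulosa cells, had 2029, 1836 and 3660 counts in sham and 18627, 15507 and 27634 in NTY, with a log2 fold change of 3.03 ± 1.48 (adjusted p = 0.449, edgeR). In both genes the NTY libraries lay close together and far above sham. Amh, the hormone of growing follicles, was low, with 14, 28 and 4 counts in sham and 38, 262 and 129 in NTY. Foxl2, a defining factor of granulosa cells, did not share this order, with 0, 8442 and 17852 counts in sham and 22, 10433 and 73 in NTY. Wt1 had 9222, 8911 and 46004 counts in sham and 6397, 66312 and 57773 in NTY. The median of the list was 1.86 on the log2 scale and ranged from 1.16 to 2.70 over the 17 fits, above that of all genes in each. The 8 stroma genes had a median of 1.29 and 0.07 without NTY replicate 3, with 0 passing the adjusted test, 0 at an unadjusted p under 0.05 and none without overlap. Col1a1, a fibrillar collagen chain, had 9286, 8266 and 117039 counts in sham and 50952, 48283 and 239242 in NTY, with sham replicate 3 above NTY replicates 1 and 2.

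Genes under the oxidant-sensing transcription factor NRF2, together with its partners, were examined since the labels carry the words NRF study. Of 23 tested of 27, 0 passed the adjusted test in edgeR, 0 were higher and 2 lower at an unadjusted p under 0.05 (7.64% and 3.24% of all genes were). The median log2 fold change was 0.31, but it turned to -0.45 with the 6 libraries alone and to -0.36 without NTY replicate 2, and was 1.75 without sham replicate 3. The 2 were Slc7a11 and Taldo1, an enzyme of the pentose phosphate pathway, which had 6519, 530 and 2 counts in sham and 49, 27 and 6 in NTY. The quinone reductase gene Nqo1 was at 0 in every library, which allows up to 3 counts, or 0.103 to 0.198 CPM. Hmox1, heme oxygenase, had 0, 0 and 5 counts in sham and 164, 28 and 11 in NTY. It was the 1 member higher without overlap. The subunits of glutamate-cysteine ligase differed from each other. Gclc, the catalytic subunit, had 0, 3327 and 931 counts in sham and 1774, 2287 and 41975 in NTY, whereas Gclm, the modifier, had 0, 5069 and 2523 in sham and 815, 373 and 21 in NTY. Prdx1, a peroxiredoxin, was lower without overlap, with 7260, 6904 and 5607 counts in sham and 1905, 3701 and 4094 in NTY, and a log2 fold change of -1.09 ± 1.76 (adjusted p = 0.907, edgeR). Of the 12 other oxidant defence genes, 0 passed the adjusted test in edgeR and 0 reached an unadjusted p under 0.05, with a median of 0.28 that ranged from -2.96 to 2.58 and kept its sign in 14 of 17 fits. Sod1, cytosolic superoxide dismutase, was the member without overlap, with 2035, 2959 and 1777 counts in sham and 520, 537 and 37 in NTY. Beside Hmox1, 5.19% of all genes tested were higher without overlap. Beside Slc7a11, Prdx1 and Sod1, 2.78% of all genes tested were lower without overlap.

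Among machinery that every cell uses, detection was broader for cytosolic ribosomal protein genes than for proteasome genes. Of 39 proteasome genes, 14 had at least 10 counts in all 6 libraries. Of the 84 cytosolic ribosomal protein genes, 79 were tested, 67 had at least 10 counts in all 6 libraries, and 0 passed the adjusted test or reached an unadjusted p under 0.05 in edgeR. Their median log2 fold change was 0.45, from 0.15 to 0.73 over the 17 fits, and 9 were higher and 1 lower without overlap, where 5.19% and 2.78% of all genes were. Rps14 had 96, 1991 and 141 counts in sham and 7459, 5776 and 4031 in NTY, and Rpl23a had 14969, 47843 and 19000 in sham and 77492, 54920 and 48912 in NTY. Of 34 proteasome genes tested, 0 passed the adjusted test in edgeR, 2 were higher and 1 lower at an unadjusted p under 0.05, and 4 were higher without overlap, again beside 7.64%, 3.24% and 5.19% of all genes. Psmb2, a subunit of the catalytic core, had 83, 454 and 6 counts in sham and 9689, 5892 and 9489 in NTY (log2 fold change 5.77 ± 2.43, unadjusted p = 0.0216, adjusted p = 0.405, edgeR). All 3 NTY libraries of Psmb2 were similar in level and the sham libraries all lay below.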

How the data were processed

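Bulk RNA sequencing of 6 libraries of oocytes from primordial follicles (3 sham, 3 NTY) was analysed, with 6 of primary follicles in the same fit to share the estimate of spread; these 12 libraries were taken to be the microdissected ones. Groups and replicate numbers came from the labels. For 53715 genes the authors deposited raw read counts as whole numbers, and beside them a TPM table, used for an alternative and for symbols (10500 of the 10522 genes tested). The submitters' processing notes name Trim Galore 0.4.1, TopHat2, featureCounts and mm10, without their settings. Since the RNA was amplified, reads are not independent molecules, and intervals and count floors cover counting error only. The number of columns left unused for lack of a sample was 0.

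CPM used library totals. The main test was edgeR 4.0.16 (quasi-likelihood, robust, TMM, filterByExpr by group, fitted fold changes with a prior count of 0.125) in R 4.3.3, with Benjamini-Hochberg adjustment and a threshold of 0.05. Standard errors were the log2 fold change over the square root of F. Alternatives were RLE scaling, DESeq2 1.42.0 with and without its filter on Cook distances, limma 3.58.1 with voom and quality weights or on log2(TPM + 1) where 3 or more libraries had a TPM of 1 or more, other filters, the 6 libraries alone, a replicate block and leaving out each library. The replicate numbers are not said to pair the libraries, so the block was an alternative only. Some of the fits were also run on simulated data, with dispersions below the 3.60 of the 12 libraries. That run therefore does not show how they perform at the spread of these data. Python 3.11.15, numpy 2.4.6 and pandas 2.3.3 made the summaries. Coordinates and sequences came from GENCODE M21 (GRCm38), where 10510 of the genes tested were found.

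Members and the 24 gene lists were chosen with earlier results of these data known. Named genes were those past the adjusted threshold with 12 or with 6 libraries, the 10 of smallest p in each direction without overlap and with a mean of at least 10 CPM, the 8 of smallest p in each direction among genes with at least 10 counts in each of the 6 libraries, up to 10 in each direction with 3 counts or fewer against at least 100, the 10 most abundant, and any gene of the lists; some of these genes are not reported here.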

Additional observations from a re-analysis of the deposited data

Results flagged for a closer look

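H2ac4 was the result whose NTY effect differed between the stages by the test of the difference itself. In oocytes from primary follicles it had 3115, 15407 and 2279 counts in sham and 9238, 39332 and 18871 in NTY, so it was present in both groups there. The difference of the log2 fold changes, primary minus primordial, was -12.5 (adjusted p = 0.0238 over 10522 genes, edgeR), and H2ac4 was the 1 gene called. Without primordial NTY replicate 3 the difference was -8.27 with an adjusted p of 0.18. No separate search for outliers was made here, since each group holds 3 libraries. The Cook filter of DESeq2 and the fits that leave out each library are described below.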

How the results depend on the processing

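The count of genes past the adjusted p, 1 in the main test, was 2 with RLE scaling, 1201 with DESeq2 and 750 with its Cook filter (which gave H2ac4 no adjusted p), 0 with limma-voom (817 at an unadjusted p under 0.05), 0 of 1848 with at least 10 counts in each library, 6 with the 6 libraries alone, and 0 with these less NTY replicate 3; the cause was not tested. Leaving out each library gave 0 to 3 calls, with 0 without NTY replicate 3 (1145 at an unadjusted p under 0.05), and 3 without NTY replicate 1 or 2 (H2ac4, H2ac15 and Fkbp3 each time). Genes higher without overlap, 546, numbered 756 to 1818, and genes lower, 292, numbered 354 to 954; fewer values make overlap rarer by construction. The share of higher genes among those without overlap, 65.2%, ranged from 44.8% (without sham replicate 1) to 83.7% (without NTY replicate 3). The alternatives to the overlap counts, and the fit of the 6 libraries less NTY replicate 3, were chosen after seeing the data. For the 44 genes named by p, adjusted p or the on-or-off pattern, no direction turned in 660 values. They were picked from these same libraries, nearly all for groups that do not overlap, so a turn was unlikely by construction. The most abundant genes and list members are not among these, and without NTY replicate 3 Actb turned to -0.63, Usp9x to -0.19, Ppia to -0.15 and Foxo3 to -1.30.

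Same-numbered libraries did not deviate together (correlations 0.0174, 0.0657 and -0.00393), and with the replicate block 1 gene was called, H2ac4 (adjusted p = 4.95e-05, edgeR), with 587 at an unadjusted p under 0.05 against 1145. The median of all genes moved from 0.12 to 0.84 with voom and 0.39 with the block, and the share of higher genes among those at an unadjusted p under 0.05 from 70.2% to 80.3% and 76.3%; that share was 57.3% with at least 10 counts in each library, 60.0% without sham replicate 1, 52.9% without NTY replicate 2 and 81.2% without NTY replicate 3. Against that median, ribosomal protein genes lay on the same side in 14 of 17 fits and proteasome genes in 15.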

Other observations

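Of the 13 genes encoded by the mitochondrial genome, 4 were at 0 in all libraries and the rest were low, with a sum of 9.57, 18.2 and 28.2 CPM in sham and 63.9, 99.9 and 30.6 CPM in NTY. All 3 NTY sums lay above the sham sums. Of 9 genes tested, 0 passed the adjusted test or an unadjusted p of 0.05 in edgeR, and the median log2 fold change was 1.69. The complex I subunit mt-Nd2 had 19, 56 and 56 counts in sham and 200, 320 and 299 in NTY, with no overlap. Of all genes tested, 5.19% were higher without overlap. Of 31 nuclear genes of complex I tested, 0 passed the adjusted test in edgeR. At an unadjusted p under 0.05, 3 were higher, beside 7.64% of all genes. The median of the 31 was -0.61, and its sign held in 12 of 17 fits. Ndufv1, a complex I subunit of the NADH-binding module, had 556, 1395 and 388 counts in sham and 2292, 2250 and 8073 in NTY.

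Of 12 proliferation genes tested, 0 passed the adjusted test or an unadjusted p of 0.05 in edgeR, with a median of -1.46, and of -0.04 without sham replicate 2. Mcm2, a subunit of the replicative helicase, was lower without overlap at 91.3, 156 and 211 CPM in sham and 65.3, 42.1 and 19.6 CPM in NTY. Tyms, which makes thymidylate, had 0, 0 and 1 counts in sham and 141, 129 and 2 in NTY. By CPM Tyms counted as higher without overlap. Its NTY replicate 3 stayed under the floor of 3 counts, so that library cannot be told apart from the sham libraries. Of 12 chromatin and DNA methylation genes tested, 0 passed the adjusted test or an unadjusted p of 0.05 in edgeR, and the median was -0.05, with its sign kept in 6 of 17 fits. Ezh2, the methyltransferase of Polycomb complex PRC2, was the member without overlap, at 85.1, 254 and 94.6 CPM in sham and 327, 371 and 1022 CPM in NTY. Of 18 DNA damage and apoptosis genes tested, 0 passed the adjusted test or an unadjusted p of 0.05 in edgeR (median 0.30, and -1.57 without NTY replicate 2). The kinase gene Atm was the member without overlap, with 0, 65 and 60 counts in sham and 252, 163 and 196 in NTY. Beside the members without overlap in these lists, 5.19% of all genes tested were higher and 2.78% lower without overlap.

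Immediate early genes, which encode early regulators induced by stimulation, numbered 8 tested of 13. None passed the adjusted test in edgeR, and 1 was higher and 1 lower at an unadjusted p under 0.05. Of all genes tested, 7.64% were higher and 3.24% lower at that level. Jun, the higher, had 0, 0 and 0 counts in sham and 301, 0 and 7 in NTY, and Dusp1, the lower, had 0, 6771 and 1 in sham and 0, 1 and 1 in NTY, so each rested on a single library. Of 15 stress response genes tested, none passed the adjusted test in edgeR and 1 was higher at an unadjusted p under 0.05, Hspa1b, with 262 counts in NTY replicate 1 and 0 in the other libraries, and the median was -0.02, with its sign kept in 7 of 17 fits. Of 15 housekeeping genes tested, none passed the adjusted test in edgeR, 1 was higher at an unadjusted p under 0.05 (Tbp, with 0, 5 and 2 counts in sham and 6200, 1043 and 1 in NTY), and the median was 0.47, and -0.08 without NTY replicate 3. Without overlap, 3 of the 15 were higher and 0 lower, beside 5.19% and 2.78% of all genes tested. The elongation factor gene Eef2 was at 727, 968 and 965 CPM in sham and 1025, 1095 and 1104 CPM in NTY. It was among the steadiest of the housekeeping genes in level, yet every NTY library lay above every sham library.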
